A study of Arabidopsis thaliana with 10 samples.

Results

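The 10 genes described here encode membrane-bound NAC transcription factors, called NTL (NAC with transmembrane motif 1-like) proteins. They were chosen by locus identifier in the deposited gene count table, where they are 10 of 33602 genes. They are NAC13 (AT1G32870), NAC014 (AT1G33060), NAC016 (AT1G34180), NAC017 (AT1G34190), NTL8 (AT2G27300), NAC053 (AT3G10500, also named NTL4), NAC060 (AT3G44290), NAC062 (AT3G49530, also named NTL6), NTL9 (AT4G35580, also named CBNAC) and TIP (AT5G24590, also named NAC091). Of the 10, 9 had enough counts to be tested, and NAC060 did not.

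NTL proteins are made as dormant precursors held in the endoplasmic reticulum, the nuclear envelope or another membrane by a C-terminal transmembrane segment. A stress cue lets a protease cut the segment off or a splice form leave it out, and the freed NAC domain enters the nucleus and binds promoters that hold the core CACG. Individual members are known for signalling from mitochondria, leaf senescence, cold and pathogen defence, and salt-delayed flowering. Messenger RNA of an NTL gene measures the supply of the precursor and not its release.

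Messenger RNA was sequenced from leaves of 4-week-old, untreated Arabidopsis thaliana plants grown on soil. The groups were 35S:NTL6-SRDX in pnet2_ab, 35S:NTL9-SRDX in pnet2_ab, 35S:NTL12-SRDX in pnet2_ab, pnet2_ab alone, and wild type Col-0, with 2 libraries each. All 3 SRDX lines carry the pnet2_ab background, PNET2 being a family of inner nuclear membrane proteins; the alleles are not given in the sources used here. 35S is a promoter active in nearly all plant cells, and SRDX is a short repression domain that turns a transcription factor fused to it into a dominant repressor of its targets. The NTL6, NTL9 and NTL12 lines are called so by their labels alone. How many independent transformants stand behind each SRDX line is also not given there. For 1 of the NTL12 libraries, the second, title (NTL12) and genotype (NTL2) disagree, and the title was followed; the name NTL12 is not paired with a locus in the sources used here. The series text speaks of triplicates, and 2 libraries per genotype were analysed. Nothing in the labels says that the 2 libraries of a genotype came from separate plants, so the p-values reflect sample-to-sample spread alone, part or all of which may be technical.

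Library totals were 22.6 to 28.3 M counts. Among 3 PNET2 family genes, 2 were lower and AT1G28760 was higher in pnet2_ab than in wild type (19.0 and 16.7 CPM against 5.75 and 3.75 CPM), so these counts alone do not read out the mutation. The fall of AT3G49840 lost its call without wild type replicate 2 or pnet2_ab replicate 1, which leaves 1 lower; over all tested genes 17.2% were called higher and 16.8% lower. CPM stands for counts per 1e6 counts of a library after TMM scaling. The summed level of 5 leaf markers was 31200 to 32100 CPM in pnet2_ab against 53600 to 57500 CPM in wild type, and 36800 to 45700 CPM in the 3 lines. LHB1B1 of that list did not fall, with means of 6740 CPM in pnet2_ab and 6040 CPM in wild type. The summed level of 5 flower markers was 8.72 to 13.6 CPM in pnet2_ab against 2.15 to 2.18 CPM in wild type, where AP1 was at 0. SEP3 made up most of the rise (mean 6.91 against 0.932 CPM), and AG was not higher (mean 0.506 against 0.821 CPM). The summed level of 4 root markers, nearly all of it PYK10, was 140.0 to 172 CPM in pnet2_ab against 96.4 to 170.0 CPM in wild type, and 49.7 to 130.0 CPM in the 3 lines. Within that list NRT2:1 was higher (5.97 and 3.02 CPM in pnet2_ab against 0.45 and 0.223 CPM in wild type) and CASP1 lower (0.0326 and 0 CPM against 0.85 and 0.713 CPM). The sum of 3 guard cell markers was 41.3 to 42.2 CPM in pnet2_ab against 54.7 to 61.4 CPM in wild type, and that of 2 epidermis markers was 182 to 188 CPM against 239 to 256 CPM. Among the guard cell markers KAT1 held most of the fall (mean 13.8 against 28.8 CPM), and FMA did not fall (mean 20.5 against 19.8 CPM). The sum of 3 vasculature markers was 286 to 289 CPM in pnet2_ab against 304 to 314 CPM in wild type. The part of these marker shifts in the NTL values below was not tested, and in whole leaves fewer cells of a type and less RNA per cell cannot be told apart.

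The stretches just upstream of 3 NTL genes are shown because NAC016 had the largest fold change in pnet2_ab and NAC062 and TIP are the members that differed between SRDX lines. Each is the 250 bases before the outermost annotated start, 5′ to 3′ on the gene's strand, from RefSeq's TAIR10.1 assembly (chr1:12448293-12448542 on the plus strand for NAC016, chr3:18364960-18365209 on the minus strand for NAC062 and chr5:8419077-8419326 on the minus strand for TIP). Capitals mark the NAC core, CACG or its reverse complement CGTG.
NAC016: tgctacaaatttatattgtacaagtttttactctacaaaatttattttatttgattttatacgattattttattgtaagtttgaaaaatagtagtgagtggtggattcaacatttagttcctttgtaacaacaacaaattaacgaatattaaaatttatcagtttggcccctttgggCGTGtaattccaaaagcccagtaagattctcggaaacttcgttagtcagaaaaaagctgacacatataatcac
NAC062: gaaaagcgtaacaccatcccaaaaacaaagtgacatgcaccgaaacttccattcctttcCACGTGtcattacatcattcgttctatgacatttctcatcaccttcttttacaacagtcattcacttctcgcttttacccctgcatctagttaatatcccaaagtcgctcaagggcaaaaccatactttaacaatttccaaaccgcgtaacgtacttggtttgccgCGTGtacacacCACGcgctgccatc
TIP: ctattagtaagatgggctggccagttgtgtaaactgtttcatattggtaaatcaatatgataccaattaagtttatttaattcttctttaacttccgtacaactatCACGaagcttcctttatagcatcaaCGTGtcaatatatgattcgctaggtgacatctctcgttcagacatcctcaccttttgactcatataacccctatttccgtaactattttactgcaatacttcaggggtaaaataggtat

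The NAC core, searched on both strands, stood in the upstream stretch of 10 of 10 NTL genes, with 1 to 4 sites and a median of 2. It is a short word, present in 45.6% of the 27437 stretches of the same length upstream of all genes, where the median was 0 sites. Not every stretch lies between genes. In the RefSeq annotation NAC052 ends 14 bases before NAC053, so the NAC053 stretch with both its sites lies almost wholly inside NAC052. The NAC017 stretch overlaps NAC016 in part. The G-box CACGTG, a palindrome that holds the NAC core on both strands, stood upstream of NAC014, NAC062 and NTL9, and in 6.48% of all stretches. The G-box of NAC062 lay 191 bases before the annotated start and that of NAC014 lay 125 bases before it. The mitochondrial dysfunction motif, the word through which NAC13 and NAC017 are known to bind mitochondrial stress genes, stood upstream of NAC017 alone, and in 1.75% of all stretches. That site lies in the gap between NAC016 and NAC017, 117 bases wide in the RefSeq annotation, and reads, with the motif in capitals on the reverse strand, as follows.
NAC017: acctctgtCGTGTCAGACAAGaatgttgg
The W-box spelled TTGACC (12.2% of all stretches) and the abscisic acid response core spelled ACGTGGC (3.38%) were in none of the 10 stretches. Only these exact letters were searched, so other spellings of the same elements are not covered. The TIP stretch above holds TTGACT and ACGTGTC, and the NAC062 stretch holds ACGTGTC. These matches describe the letters only.

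The members differed widely in their level per gene length, given by the authors' deposited FPKM, a fragment count scaled by gene length and library size. Averaged over the 10 libraries, NAC017 was highest at 20.8 FPKM, followed by TIP at 15.3, NTL9 at 12.9 and NAC062 at 12.3 FPKM. A middle group held NAC014 at 6.64, NAC13 at 5.49 and NAC053 at 5.37 FPKM. NAC016 at 0.589 FPKM and NTL8 at 0.424 FPKM formed a low group, and NAC060 averaged 0.00883 FPKM. The ranges over libraries of neighbours within a group overlapped, whereas no library's NAC014 value (4.24 to 8.41 FPKM) reached the lowest NAC062 value (9.42 FPKM), and NAC016 (0.0423 to 1.44 FPKM) stayed below the lowest NAC053 value (2.76 FPKM). NAC017 ranked first in all 5 genotypes by mean FPKM. TIP ranked second in pnet2_ab and in the 3 lines, and held rank 4 in wild type, behind NTL9 and NAC062.

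**Figure D1:**
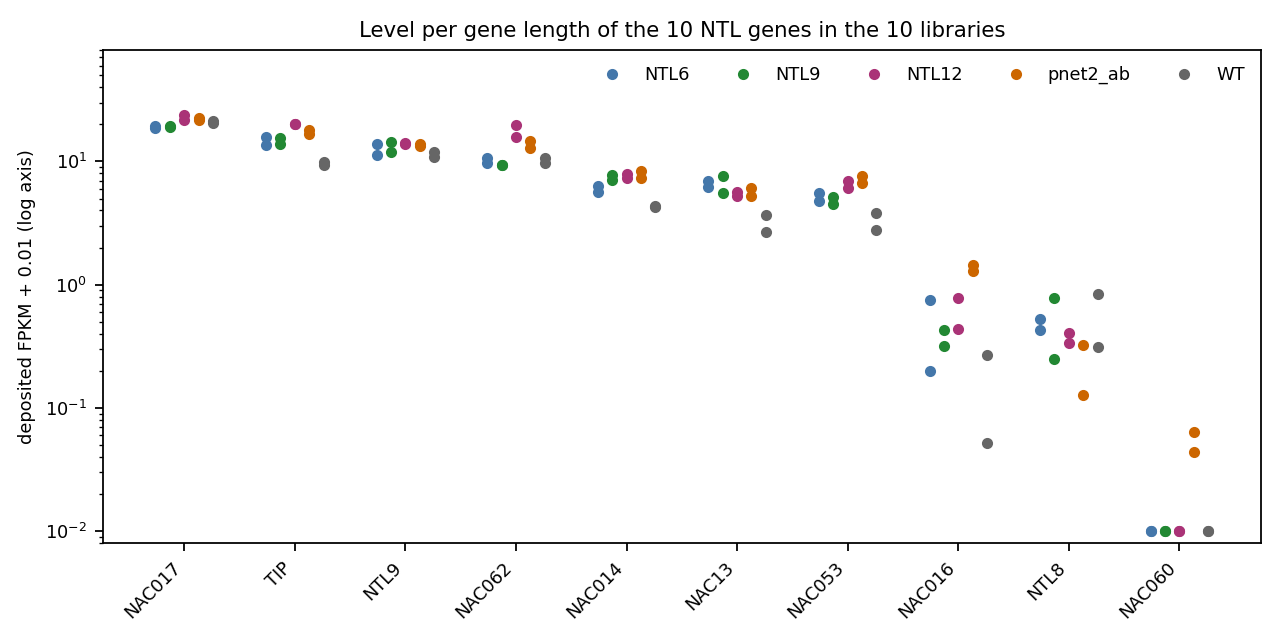
Deposited FPKM plus 0.01, on a log axis, of each NTL gene in the 10 libraries, with 1 point per library coloured by genotype. NAC017 is highest, at 18.8 to 23.7 FPKM, and NAC016, NTL8 and NAC060 lie in a group well below the other members.

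The summed FPKM of the 10 genes was 87.4 and 91.1 in pnet2_ab against 65.6 and 61.5 in wild type. It was 73.9 and 76.1 FPKM for the NTL6 line, 79.8 and 72.1 FPKM for the NTL9 line and 96.8 and 93.3 FPKM for the NTL12 line. The sums of the NTL6 and NTL9 lines lay between those of pnet2_ab and wild type, and both NTL12 sums lay above both pnet2_ab sums. NAC017 made up 24.8% to 25.0% of the sum in pnet2_ab against 32.5% to 33.5% in wild type.

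In pnet2_ab against wild type, 6 of the 9 tested members rose and none fell: NAC13, NAC014, NAC016, NAC053, NAC062 and TIP. Over all 20334 tested genes 17.2% were called higher and 16.8% lower. A gene was called when its Benjamini-Hochberg adjusted p, over all tested genes, was under 0.05 in edgeR's quasi-likelihood test, which is the test behind every adjusted p given here. The median log2 fold change of the 9 members was 0.832, against 0.035 over all tested genes.

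NAC13 and NAC017 are the endoplasmic reticulum anchored factors of mitochondrial retrograde signalling, which carry the message of a failing respiratory chain to the nucleus. NAC13 had 10.2 and 11.9 CPM in pnet2_ab, against 5.25 and 7.13 CPM in wild type. Both pnet2_ab values lay above both wild type values, a log2 fold change of 0.83 ± 0.20 (SE, adjusted p = 0.0021). NAC017 had 48.7 and 50.4 CPM in pnet2_ab, against 47.5 and 46.0 CPM in wild type, and was not called (0.08 ± 0.09, adjusted p = 0.52). The pnet2_ab values were both the higher ones, but by less than the test could tell from the spread.

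NAC016 promotes leaf senescence and chlorophyll breakdown, and NAC053 is known to drive reactive oxygen production through NADPH oxidase genes under drought. NAC016 had 3.03 and 2.69 CPM in pnet2_ab, against 0.55 and 0.0892 CPM in wild type. These are 93 and 66 counts in pnet2_ab against 11 and 2 counts in wild type. The groups stood well apart, and the log2 fold change was 3.18 ± 0.74 (adjusted p = 0.0018), the largest among the members; it ran from 1.04 to 4.92 over the alternatives tried and was called in each that gave it a value. NAC053 had 13.7 and 15.8 CPM in pnet2_ab, against 7.9 and 5.71 CPM in wild type. The groups did not overlap, and the log2 fold change was 1.12 ± 0.19 (adjusted p = 5.5e-05). NAC053 starts 14 bases from its NAC neighbour NAC052, which also rose (0.81, adjusted p = 5.5e-06); no stretch of 50 bases of any member recurs elsewhere in the genome.

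NAC062 is cut loose in the cold and under endoplasmic reticulum stress and activates pathogenesis-related and chaperone genes. It had 23.8 and 27.1 CPM in pnet2_ab, against 19.7 and 17.7 CPM in wild type. All pnet2_ab values were higher, but the rise was the smallest of the 6 (0.44 ± 0.13, adjusted p = 0.012). The call was lost without wild type replicate 2 (0.35, adjusted p = 0.12) and without pnet2_ab replicate 2 (0.35, adjusted p = 0.11). TIP, which binds the coat protein of turnip crinkle virus, had 31.3 and 33.7 CPM in pnet2_ab, against 18.4 and 17.5 CPM in wild type. Its libraries were tight within each genotype and far apart between them (0.85 ± 0.12, adjusted p = 5.2e-06). NTL9, a calmodulin-binding repressor of PR1, had 26.5 and 25.5 CPM in pnet2_ab, against 22.7 and 20.7 CPM in wild type. It was higher in both pnet2_ab libraries without being called (0.26 ± 0.13, adjusted p = 0.13).

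NAC014 had 18.6 and 16.3 CPM in pnet2_ab, against 9.4 and 9.59 CPM in wild type (0.88 ± 0.15, adjusted p = 7.4e-05). The groups did not overlap. NTL8, which delays flowering under salt and regulates trichome repressors, had 10 and 3 counts in pnet2_ab, against 17 and 7 counts in wild type. The values overlapped, and its change of -1.31 ± 0.96 was not called (adjusted p = 0.32). NAC060, known from sugar and abscisic acid responses of seedlings, had 2 and 1 counts in pnet2_ab and 0 in the other 8 libraries. A count of 0 allows up to 3 counts, or 0.114 to 0.15 CPM in those 8 libraries, so no difference was detectable at this depth.

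**Figure D2:**
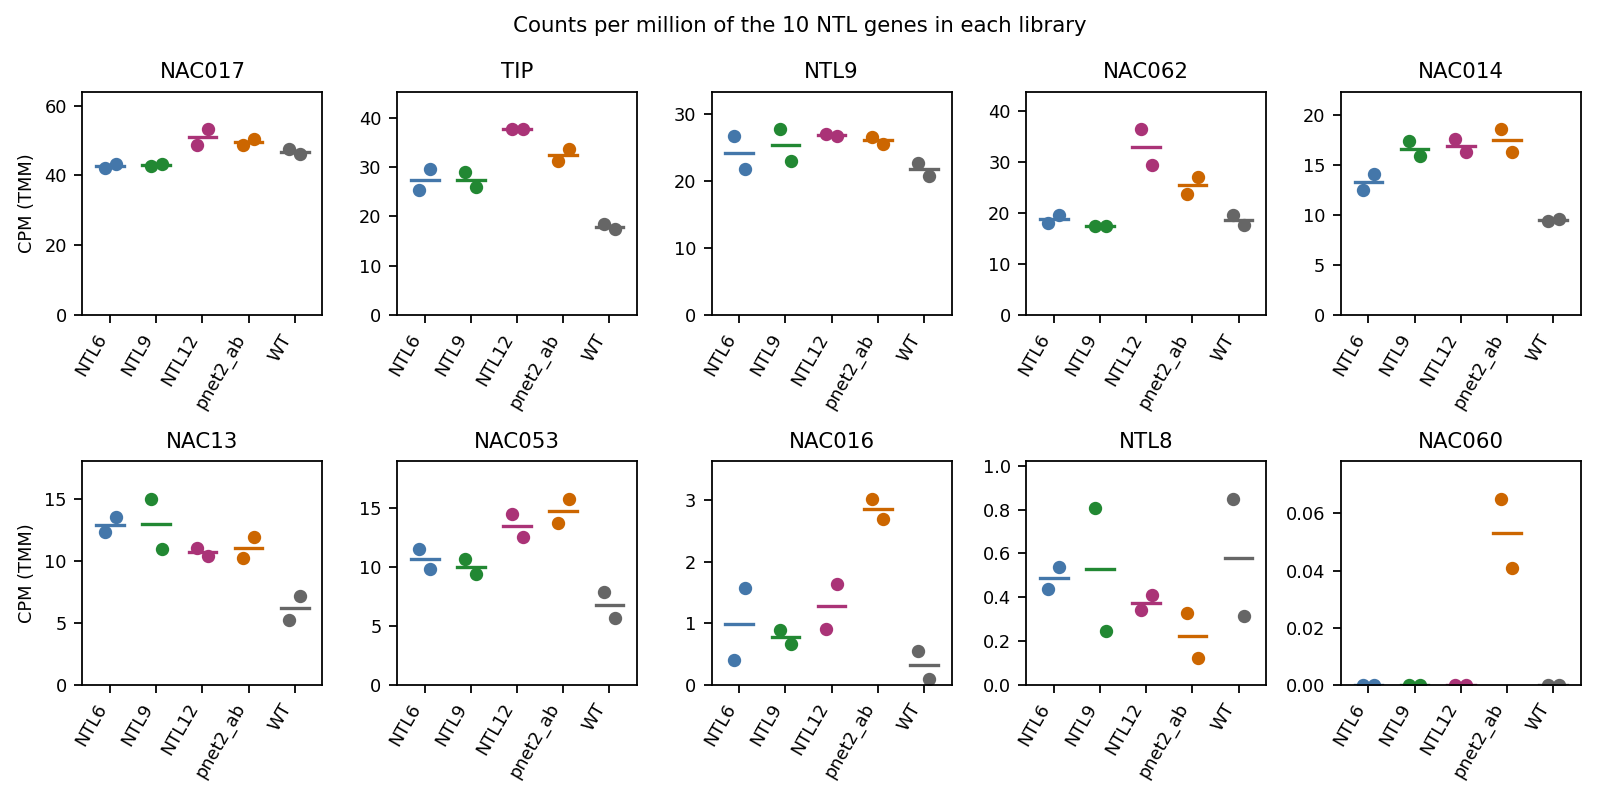
CPM after TMM scaling of each NTL gene in each library, with points for the 2 libraries of a genotype and a line at their mean; each panel has its own axis from 0. TIP and NAC014 are lowest in wild type, NAC062 is highest in the NTL12 line (36.5 and 29.5 CPM), and NAC016 is highest in pnet2_ab (3.03 and 2.69 CPM).

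The SRDX lines were then set against pnet2_ab, the background they carry. The same pnet2_ab libraries entered the comparison with wild type, so a high pnet2_ab value raises that fold change and lowers those of the lines. The part of this in the falls below was not tested. In gene counts, reads of a 35S transgene and of its native gene fall on the same locus. Neither labelled transgene was visible there: NAC062 (NTL6) was lower in the line labelled NTL6 than in pnet2_ab, and NTL9 was not called in the line labelled NTL9 (-0.04 ± 0.13, adjusted p = 0.87). No member was higher than in pnet2_ab past the threshold in any of the 3 lines. In the NTL6 line 1 of 9 members fell (NAC062), where 8.75% of all tested genes were called higher and 9.35% lower. In the NTL9 line 3 of 9 fell (NAC016, NAC053 and NAC062), where 11.6% of all genes were called higher and 10.8% lower. In the NTL12 line 0 of 9 were called, where 6.95% of all genes were called in either direction; 1 member, NAC062, had an unadjusted p under 0.05, at 0.0076, and DESeq2 also called 0. The median log2 fold change of the 9 members was -0.245 in the NTL6 line, -0.207 in the NTL9 line and 0.04 in the NTL12 line, with -0.002 and -0.011 over all tested genes in the NTL6 and NTL9 lines.

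NAC062 carried the clearest difference among the lines. It had 18.1 and 19.7 CPM in the NTL6 line and 17.5 and 17.5 CPM in the NTL9 line, against 23.8 and 27.1 CPM in pnet2_ab. All 4 of these line libraries lay below both pnet2_ab libraries. The log2 fold change was -0.43 ± 0.13 in the NTL6 line (adjusted p = 0.025) and -0.54 ± 0.13 in the NTL9 line (adjusted p = 0.0044). Without pnet2_ab replicate 2 both calls were lost, at -0.33 (adjusted p = 0.18) in the NTL6 line and -0.44 (adjusted p = 0.053) in the NTL9 line; the NTL6 call was also lost without NTL6 replicate 1 (adjusted p = 0.17) or replicate 2 (adjusted p = 0.066). In the NTL12 line NAC062 had 36.5 and 29.5 CPM, both above pnet2_ab, but that difference was not called (0.38 ± 0.13, adjusted p = 0.082).

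The lines were compared with each other directly for the same gene. NAC062 was lower in the NTL6 line than in the NTL12 line (-0.81 ± 0.13, adjusted p = 0.00012) and lower in the NTL9 line than in the NTL12 line (-0.92 ± 0.13, adjusted p = 3.7e-05). Both calls held whichever library was left out. TIP had 25.3 and 29.5 CPM in the NTL6 line and 28.9 and 25.9 CPM in the NTL9 line, against 37.7 and 37.6 CPM in the NTL12 line. The 4 lower values did not overlap the NTL12 values, and the log2 fold changes were -0.46 ± 0.11 (adjusted p = 0.006) for the NTL6 line and -0.46 ± 0.11 (adjusted p = 0.0069) for the NTL9 line. The first was lost without NTL6 replicate 1 (-0.35, adjusted p = 0.11) and the second without NTL9 replicate 2 (-0.38, adjusted p = 0.099). These are 2 of 9 members lower in the NTL6 line than in the NTL12 line and 2 of 9 lower in the NTL9 line than in the NTL12 line, where 8.46% and 7.07% of all genes were called lower. Between the NTL6 and NTL9 lines 0 of 9 members were called, where 6.06% of all genes were; NAC014 alone had an unadjusted p under 0.05, at 0.037, and DESeq2 also called 0.

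**Figure D3:**
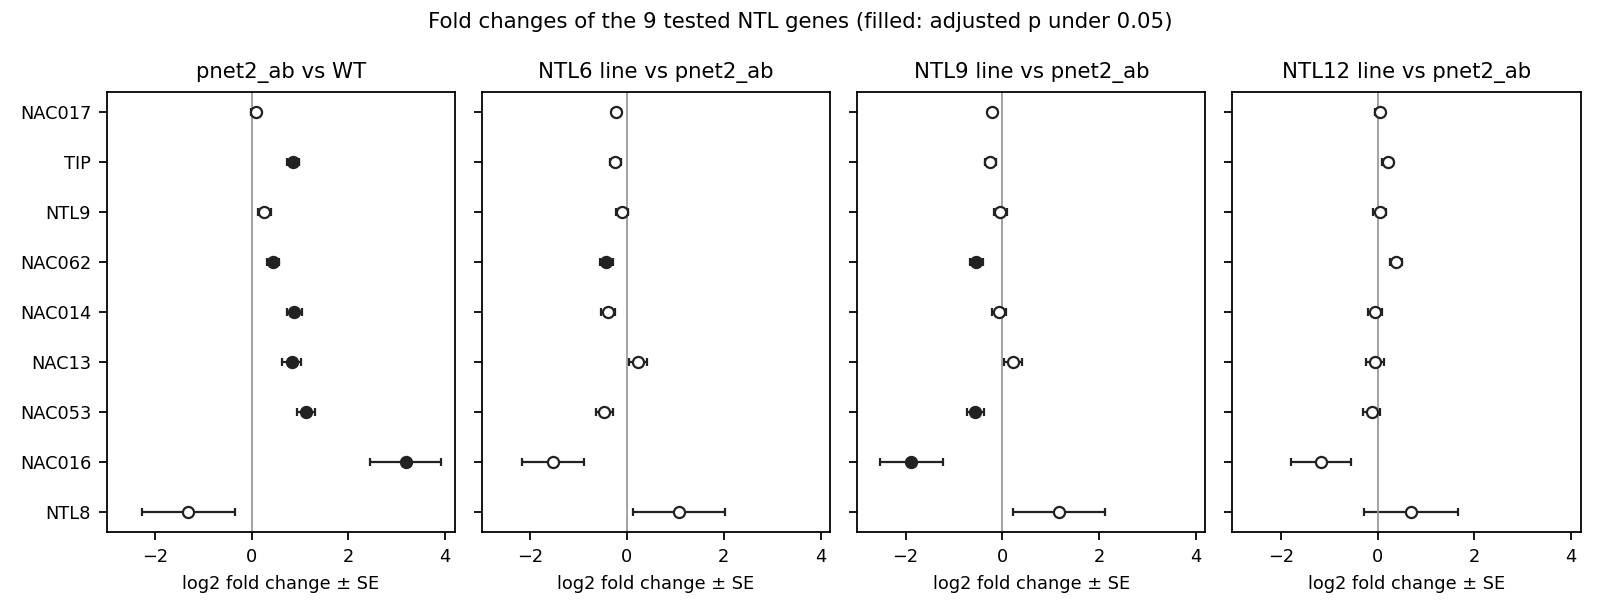
Log2 fold change with its standard error for the 9 tested NTL genes in pnet2_ab against wild type and in each SRDX line against pnet2_ab; filled points have an adjusted p under 0.05. The 6 filled points against wild type are all to the right of 0, and the 4 filled points of the lines are all to the left. Both sets of points use the same pnet2_ab libraries, so a high or low pnet2_ab value moves them in opposite directions.

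NAC016 and NAC053, the senescence and reactive oxygen members, were also lower in the NTL9 line. NAC016 had 0.891 and 0.658 CPM in the NTL9 line, against 3.03 and 2.69 CPM in pnet2_ab (-1.88 ± 0.65, adjusted p = 0.042). NAC053 had 10.7 and 9.37 CPM in the NTL9 line, against 13.7 and 15.8 CPM in pnet2_ab (-0.55 ± 0.18, adjusted p = 0.027). Neither gene's groups overlapped. The NAC016 call was lost without either pnet2_ab library, either NTL9 library or either NTL12 library (adjusted p up to 0.2), and the NAC053 call was lost without pnet2_ab replicate 2 or either NTL9 library (adjusted p up to 0.19). NAC016 had 0.397 and 1.57 CPM in the NTL6 line (-1.53 ± 0.63, adjusted p = 0.1; -2.84, adjusted p = 0.042, without NTL6 replicate 2) and 0.91 and 1.64 CPM in the NTL12 line (-1.17 ± 0.62, adjusted p = 0.31). All 6 line libraries therefore lay below both pnet2_ab libraries for NAC016, on 10 to 41 counts each. NAC053 had 11.5 and 9.86 CPM in the NTL6 line (-0.47 ± 0.18, adjusted p = 0.073) and 14.5 and 12.5 CPM in the NTL12 line (-0.12 ± 0.17, adjusted p = 0.76).

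The remaining members were not called in any line against pnet2_ab. NAC13 had 12.3 and 13.5 CPM in the NTL6 line, 15.0 and 10.9 CPM in the NTL9 line and 11.0 and 10.4 CPM in the NTL12 line, against 10.2 and 11.9 CPM in pnet2_ab. The NTL6 values lay above both pnet2_ab values and the others overlapped them, with log2 fold changes of 0.22 ± 0.18, 0.23 ± 0.19 and -0.05 ± 0.19 in that order of lines, none called. NAC014 had 12.5 and 14.1 CPM in the NTL6 line, below both pnet2_ab libraries but not called (-0.40 ± 0.14, adjusted p = 0.061). It had 17.4 and 15.9 CPM in the NTL9 line and 17.6 and 16.3 CPM in the NTL12 line, which overlapped the pnet2_ab values. NAC017 had 42.1 and 43.2 CPM in the NTL6 line and 42.6 and 43.2 CPM in the NTL9 line, all below pnet2_ab and below wild type without being called (adjusted p = 0.1 and 0.11 against pnet2_ab), and 48.6 and 53.3 CPM in the NTL12 line. TIP differed from pnet2_ab by -0.25 ± 0.11 in the NTL6 line (adjusted p = 0.14), by -0.24 ± 0.11 in the NTL9 line (adjusted p = 0.13) and by 0.21 ± 0.11 in the NTL12 line (adjusted p = 0.3). Its line values, given above, were below both pnet2_ab values in the NTL6 and NTL9 lines and above both in the NTL12 line. NTL9 had 26.6 and 21.8 CPM in the NTL6 line, 27.7 and 22.9 CPM in the NTL9 line and 26.9 and 26.6 CPM in the NTL12 line, against 26.5 and 25.5 CPM in pnet2_ab. NTL8 had 11 and 14 counts in the NTL6 line, 19 and 6 counts in the NTL9 line and 9 and 10 counts in the NTL12 line, against 10 and 3 counts in pnet2_ab.

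Against wild type, the lines share their reference libraries with pnet2_ab, so the values are given side by side. In the NTL6 line 4 of 9 members were higher (NAC13, NAC014, NAC053 and TIP), where 10.9% of all genes were. In the NTL9 line 3 of 9 were higher (NAC13, NAC014 and TIP), where 6.29% of all genes were. In the NTL12 line 6 of 9 were higher (NAC13, NAC014, NAC016, NAC053, NAC062 and TIP), where 14.9% of all genes were. No member was lower in any line, where 12.6%, 7.43% and 15.6% of all genes were, in the order NTL6, NTL9 and NTL12.

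NAC13 and TIP were called above wild type in pnet2_ab and in all 3 lines. For NAC13 the log2 fold change was 1.05 ± 0.20 in the NTL6 line (adjusted p = 0.00036), 1.06 ± 0.20 in the NTL9 line (adjusted p = 0.00079) and 0.79 ± 0.20 in the NTL12 line (adjusted p = 0.004), the last lost without wild type replicate 1 (0.58, adjusted p = 0.073). For TIP it was 0.61 ± 0.12 in the NTL6 line (adjusted p = 0.00054), 0.61 ± 0.12 in the NTL9 line (adjusted p = 0.0012) and 1.07 ± 0.12 in the NTL12 line (adjusted p = 3.4e-07). NAC062 differed from wild type by 0.01 ± 0.13 in the NTL6 line (adjusted p = 0.96), by -0.10 ± 0.14 in the NTL9 line (adjusted p = 0.72) and by 0.82 ± 0.13 in the NTL12 line (adjusted p = 4.9e-05). Its NTL6 values overlapped those of wild type, its NTL9 values lay just below them and its NTL12 values far above. NAC014 was also higher than in wild type in the NTL9 line (0.81 ± 0.15, adjusted p = 0.00086) and the NTL12 line (0.83 ± 0.15, adjusted p = 0.00017), and NAC053 was higher in the NTL12 line (0.99 ± 0.19, adjusted p = 0.00027) and not called in the NTL9 line (0.56 ± 0.19, adjusted p = 0.051). NAC016 in the NTL12 line (2.01 ± 0.76, adjusted p = 0.048) rested on few counts and lost its call without wild type replicate 2 (1.19, adjusted p = 0.34) or NTL12 replicate 2 (1.53, adjusted p = 0.26), and also without NTL12 replicate 1, NTL9 replicate 1 or either pnet2_ab library. In the NTL6 line NAC014 (0.48 ± 0.15, adjusted p = 0.023) lost its call without either wild type library or NTL6 replicate 2, and NAC053 (0.65 ± 0.19, adjusted p = 0.014) without wild type replicate 2 or NTL6 replicate 1.

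Across all 5 genotypes together, 6 of 9 members differed (42% of all tested genes did): TIP (adjusted p = 3.1e-06), NAC062 (1.3e-05), NAC014 (0.00025), NAC053 (0.00036), NAC13 (0.001) and NAC016 (0.01). NAC017 (adjusted p = 0.064), NTL9 (0.3) and NTL8 (0.75) were not called.

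Other genes of the pathway were looked at from lists of known roles; the counts in pnet2_ab are to be read against the 17.2% of all tested genes called higher and the 16.8% called lower. Of 7 further membrane-bound NAC genes, 2 rose in pnet2_ab against wild type and none fell. Their median log2 fold change of 0.622 is the value of NAC086, which had at most 1.35 CPM in any library. NAC103, which acts downstream of the unfolded protein response, had 7.96 and 5.26 CPM in pnet2_ab against 1.15 and 1.74 CPM in wild type (2.19 ± 0.31, adjusted p = 6.8e-06). NAC001 rose by 1.06 ± 0.35 (adjusted p = 0.022), a call lost without wild type replicate 2 or pnet2_ab replicate 2 (adjusted p up to 0.15). NTM1 (1.01, adjusted p = 0.19), NAC069 (0.32, adjusted p = 0.08), NAC086 (0.62, adjusted p = 0.53), NAC089 (0.08, adjusted p = 0.79) and NAC2 (0.04, adjusted p = 0.79) were not called. In the NTL9 line 3 of the 7 were lower than in pnet2_ab (10.8% of all genes were): NAC103 (-1.09, adjusted p = 0.006), NAC001 (-1.54, adjusted p = 0.0027) and NTM1 (-1.69, adjusted p = 0.044). Leaving out pnet2_ab replicate 1 ended the NAC103 call (adjusted p = 0.13), leaving out NTL9 replicate 2 ended the NAC001 call (adjusted p = 0.056), and the NTM1 call ended without pnet2_ab replicate 2 or any NTL9 or NTL12 library. NAC001 was also lower in the NTL12 line (-1.60, adjusted p = 0.0069), a call lost without pnet2_ab replicate 2 or NTL12 replicate 1, and 0 of the 7 were called in the NTL6 line by edgeR or by DESeq2, with 3 at an unadjusted p under 0.05.

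Among 6 genes for the release of NTL proteins or their partners, 1 rose in pnet2_ab, a share close to the 17.2% of all genes. RCD1, a nuclear protein that binds NAC13 and NAC017 and restrains them, had 225 and 210 CPM in pnet2_ab, against 164 and 157 CPM in wild type (0.44 ± 0.07, adjusted p = 4.5e-05). RCD1 fell to 182 and 171 CPM in the NTL6 line (-0.30 ± 0.07, adjusted p = 0.0042) and to 167 and 165 CPM in the NTL9 line (-0.39 ± 0.07, adjusted p = 0.00027), against the same pnet2_ab values, and had 194 and 206 CPM in the NTL12 line (-0.12, adjusted p = 0.36). The NTL6 call was lost without pnet2_ab replicate 1 or NTL6 replicate 2 (adjusted p up to 0.077). The site proteases S1P (0.29, adjusted p = 0.11) and S2P (-0.10, adjusted p = 0.71), the rhomboid protease RBL2 (0.12, adjusted p = 0.6), the RCD1 relative SRO1 (0.14, adjusted p = 0.28) and the kinase SNRK2-8 (0.30, adjusted p = 0.33), which phosphorylates NAC062, were not called in pnet2_ab. Of 5 TOPLESS co-repressors, 4 rose in pnet2_ab and none fell (median 0.39), led by TPR3 (0.83 ± 0.11, adjusted p = 2.4e-06) and TPR2 (0.69 ± 0.10, adjusted p = 6.4e-06). TPL and TPR1 rose less (0.39 and 0.26); the TPR1 call was lost without wild type replicate 1 or either pnet2_ab library.

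Genes known as targets of members were then counted, in the order of the members' roles. Of 12 genes of the mitochondrial dysfunction response, 10 were tested, and 8 rose in pnet2_ab while none fell (6 to 8 as libraries were left out). Their median log2 fold change was 1.61, or 1.5 with the 3 genes of at most 3 wild type counts set against a floor of 3 counts per library. The outer membrane protein gene OM66 had 19.1 and 22.7 CPM in pnet2_ab against 5.0 and 5.93 CPM in wild type (1.93 ± 0.17, adjusted p = 1.2e-08). The dicarboxylate carrier gene DIC2 had 15.3 and 19.2 CPM in pnet2_ab against 4.65 and 3.88 CPM in wild type (2.02 ± 0.19, adjusted p = 2e-08). CRF6 rose by 1.04 ± 0.19 (adjusted p = 0.00014), and NDB4 had 1.57 and 1.63 CPM in pnet2_ab against 0.05 and 0 CPM in wild type (adjusted p = 0.00037).

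In the lines, OM66 and DIC2 of this list went as follows. OM66 had 7.77 and 8.28 CPM in the NTL6 line (-1.38 ± 0.16, adjusted p = 2.6e-06) and 6.28 and 6.41 CPM in the NTL9 line (-1.72 ± 0.17, adjusted p = 1.4e-07), against 19.1 and 22.7 CPM in pnet2_ab, and was not called in the NTL12 line (-0.44, adjusted p = 0.097). DIC2 fell to 2.54 and 3.61 CPM in the NTL6 line (-2.48 ± 0.19, adjusted p = 5.3e-09) and to 3.23 and 3.7 CPM in the NTL9 line (-2.31 ± 0.19, adjusted p = 1.1e-08), and rose to 42.4 and 39.7 CPM in the NTL12 line (1.25 ± 0.16, adjusted p = 3.3e-05), against 15.3 and 19.2 CPM in pnet2_ab. In all, 4 of the 10 were lower in the NTL6 line (2 to 5 as libraries were left out; 9.35% of all genes), 3 in the NTL9 line (2 to 4; 10.8% of all genes), and DIC2 alone was called in the NTL12 line, higher (6.95% of all genes were called in either direction). The list's median log2 fold change against pnet2_ab was below 0 in each line, at -1.364 in the NTL6 line, -1.245 in the NTL9 line and -0.345 in the NTL12 line. These medians lean on UGT74E2, GSTU24, AOX1D and NDB4, which had at most 2.36 CPM in any library and were below 0 in each line. The NTL9 median lies between UGT74E2 (-1.25, adjusted p = 0.53) and NDB4 (-1.24, adjusted p = 0.25). UGT74E2 (-1.35, adjusted p = 0.5) also borders the NTL6 median. No floor was applied to the medians of the lines. AOX1A was lower in the NTL6 line (-0.45, adjusted p = 0.008) but not called in the NTL9 line (0.11, adjusted p = 0.57). CRF6, UPOX and NDB2 were not called in any line. Set against each other, 2 of the 10 were lower in the NTL6 line than in the NTL12 line, OM66 and DIC2 (8.46% of all genes). In the NTL9 line 3 were lower and 1 higher than in the NTL12 line (7.07% of all genes lower, 1874 of 20334 higher). In the NTL6 line 1 was lower than in the NTL9 line (6.06% of all genes in either direction). Among 10 oxidase and senescence genes, 5 rose in pnet2_ab and none fell (median 0.741), among them the senescence regulators NAC3 (2.27 ± 0.21, adjusted p = 2e-08), NAP (1.74 ± 0.18, adjusted p = 1.5e-07) and NAC6, also named ORE1 (1.79 ± 0.20, adjusted p = 2.5e-07), and the oxidase gene RBOHD (0.47 ± 0.12, adjusted p = 0.0037, lost without wild type replicate 2). ABF2 was the remaining gene called higher in pnet2_ab (0.36 ± 0.13, adjusted p = 0.03). The other oxidase genes of the list, RBOHC (adjusted p = 0.051), RBOHE (0.43) and RBOHA (0.92), were not called in pnet2_ab, nor were NYE1 (0.055) and HAI1 (0.96). NAP had 6.27 and 7.1 CPM in the NTL6 line, 7.51 and 7.73 CPM in the NTL9 line and 25.0 and 26.1 CPM in the NTL12 line, against 12.3 and 10.1 CPM in pnet2_ab. It fell in the NTL6 and NTL9 lines (-0.75, adjusted p = 0.003, and -0.56, adjusted p = 0.019) and rose in the NTL12 line (1.19, adjusted p = 5.1e-05); both falls lost their call without pnet2_ab replicate 1, and the NTL9 one also without either NTL9 library. NAC3 and NAC6 fell in the NTL6 line (-1.74, adjusted p = 1.5e-06, and -0.78, adjusted p = 0.0041, the second lost without NTL6 replicate 2) and in the NTL9 line (-1.32, adjusted p = 2.4e-05, and -1.39, adjusted p = 1e-05), and were not called in the NTL12 line (0.15, adjusted p = 0.71, and -0.16, adjusted p = 0.68). RBOHD went the other way: it was higher than in pnet2_ab in the NTL6 line (0.49, adjusted p = 0.0039, lost without NTL6 replicate 2) and in the NTL12 line (0.41, adjusted p = 0.034, lost without pnet2_ab replicate 1 or either NTL12 library). Of the 10 genes, 1 was higher and 3 lower in the NTL6 line, where 8.75% of all genes were higher and 9.35% lower. In the NTL9 line 0 were higher and 4 lower (11.6% and 10.8% of all genes). In the NTL12 line 2 were higher and 0 lower (6.95% of all genes were called in either direction).

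**Figure D4:**
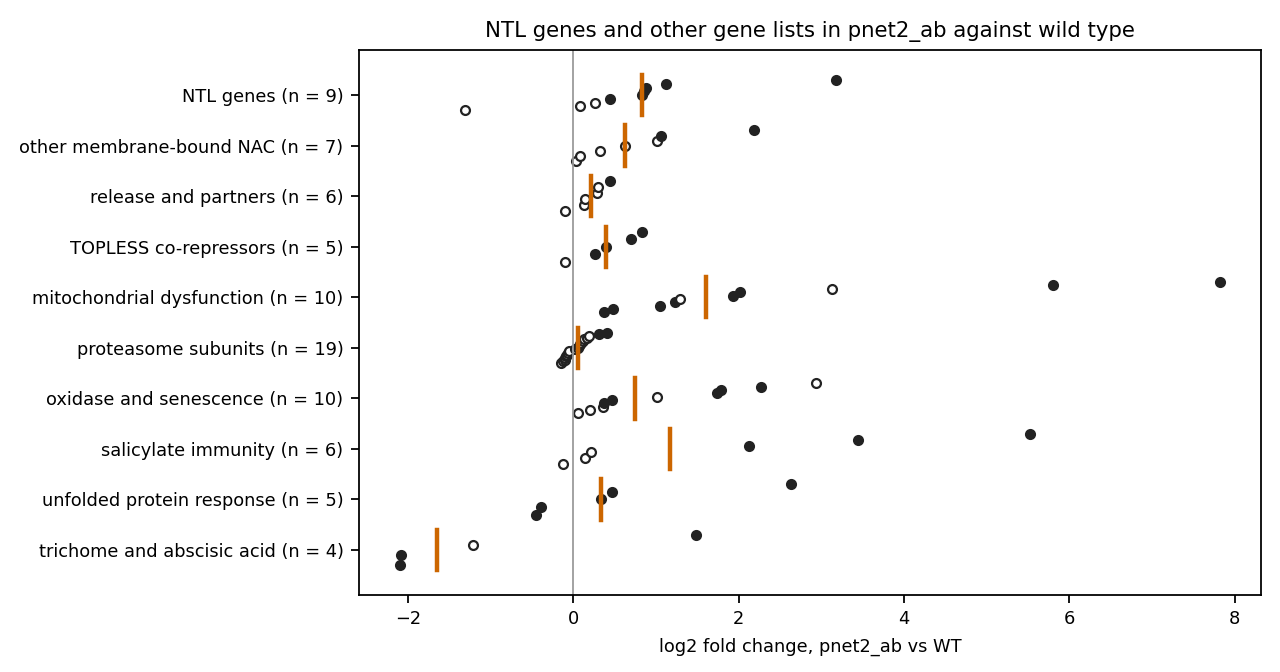
Log2 fold change in pnet2_ab against wild type of the tested NTL genes and of each other gene list, with 1 point per gene, filled where the adjusted p is under 0.05, and an orange bar at the median. The NTL median of 0.832 lies between those of the oxidase and senescence list (0.741) and the salicylate immunity list (1.171). Further out are the medians of the 7 other membrane-bound NAC genes (0.622, the value of NAC086 alone) and of the mitochondrial dysfunction list (1.61). The fitted folds of AOX1D and NDB4, far right, depend on wild type counts of 0 or 1.

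Of 19 proteasome subunit genes, known targets of NAC053, 2 rose in pnet2_ab (RPT3, 0.41, adjusted p = 0.00011, and RPT2A, 0.31, adjusted p = 0.003, the second lost without pnet2_ab replicate 2), fewer than the 17.2% of all genes called higher, and the median was 0.05. Of 6 salicylate immunity genes, the field of NAC062 and NTL9, 3 rose and none fell (median 1.171). PR1 had 2.81 and 163 CPM in pnet2_ab, against 1.05 and 2.45 CPM in wild type, so 1 library carried it, and its change of 5.53 (adjusted p = 0.00017) became 0.66 (adjusted p = 0.4) without pnet2_ab replicate 2. The same library was the higher one for PR5 (15.2 and 38.7 CPM in pnet2_ab against 6.0 and 6.24 CPM in wild type) and BGL2 (14.6 and 79.0 CPM against 4.75 and 3.83 CPM). PR5 (2.13 ± 0.28, adjusted p = 2.6e-06) and BGL2 (3.44 ± 0.49, adjusted p = 8.2e-06) were still called without it, at 1.31 and 1.76. NAC062 itself had 23.8 and 27.1 CPM in those pnet2_ab libraries. The unfolded protein response list held 5 genes, 3 of them higher and 2 lower (median 0.336): BIP3 (2.63 ± 0.62, adjusted p = 0.0021), BZIP60 (0.47 ± 0.12, adjusted p = 0.0031) and BZIP28 (0.34, adjusted p = 0.039, lost under DESeq2 and without wild type replicate 2, pnet2_ab replicate 1 or NTL9 replicate 1) were higher, and the abundant chaperone genes BIP1 (-0.45 ± 0.07, adjusted p = 2.1e-05) and BIP2 (-0.39 ± 0.08, adjusted p = 0.00031) were lower. Of 7 trichome, flowering and abscisic acid genes, the field of NTL8 and NAC060, 4 were tested; TCL1 (-2.10 ± 0.52, adjusted p = 0.0032) and TRY (-2.09, adjusted p = 0.017) fell and ABI5 (1.48, adjusted p = 0.044) rose (median -1.656). The TRY call was lost without wild type replicate 1 or either pnet2_ab library, and the ABI5 call without 8 of the 10 libraries in turn.

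The genes most like each member were taken by Pearson correlation of log2 CPM over the 10 libraries, among 6847 tested genes with a symbol and a mean of at least 5 CPM. The points share libraries and fall in 5 genotypes of 2, so the coefficients are given as a description. NAC062 ran closest with SCL13 (0.98), WRKY33 (0.97) and WRKY15 (0.97); WRKY33 spanned 14.0 to 95.3 CPM. TIP ran closest with INO80 (0.98), PLDGAMMA2 (0.97) and CAMBP25 (0.97), and NAC014 with AGO1 (0.98), MYB59 (0.97) and OPT6 (0.96). NAC053 ran closest with S6K2, SYTC and ATG8B (0.97 each), NAC017 with SAM1 (0.98), GATA4 and RMA1 (0.96 each), and NAC13 with KCS13, CYCD5;1 and RAN2 (0.94 each). NAC016 had DAG2 (0.95), Hsp70b (0.94) and RHB1A (0.93), NTL9 had SWN (0.93), SUVH3 (0.91) and AtATG18a (0.90), and NTL8 had ATKDSA2 (0.96), EMB2219 (0.84) and IMD2 (0.83). Values of NTL8 and NAC016 rest on few counts.

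NAC016 (chr1:12448567-12451287) and NAC017 (chr1:12451451-12454142) are tandem neighbours on the plus strand in the authors' table, and yet NAC016 rose in pnet2_ab while NAC017 was not called. NAC13 (chr1:11911679-11913947, plus strand) overlaps AT1G32880 on the other strand by 20 bases; AT1G32880 had at most 0.357 CPM in any library. NAC062 lies at chr3:18362443-18364913, NTL9 at chr4:16888405-16890877 and TIP at chr5:8416662-8418933, all on the minus strand (TAIR10).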

How the data were processed

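Members and gene lists were chosen with earlier results of these data known. The authors deposited 1 table of raw read counts per gene and library with gene lengths, and FPKM values for the same genes; the submitters' processing notes name TAIR10 as the genome, HISAT2 2.0.4 and HTSeq 0.6.1p1. Libraries were strand-specific per the labels' protocols; the strand setting of the counting is not given in the sources used here.

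The deposited counts went into edgeR 4.0.16 (R 4.3.3): filterByExpr kept 20334 of 33602 genes, TMM scaled the libraries, and 1 quasi-likelihood model with a coefficient per genotype was fitted to all 10 libraries, with Benjamini-Hochberg adjustment over all tested genes and a threshold of 0.05. Groups came from the titles. The biological coefficient of variation was 0.108, and replicates correlated at 0.979 to 0.982 on log2 CPM. Standard errors came from the quasi-likelihood test and include its estimate of the spread between libraries. The floor was 3 counts per library and covers counting error only. The fit was tested on simulated data.

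Alternatives were DESeq2 1.42.0 (Wald test and its size factors), no filter, a replicate block, only the 4 libraries compared, limma 3.58.1 on log2 of the deposited FPKM plus 1 or 0.1, and leaving out each library. Same-numbered libraries did not deviate together. All 10 members were named in every comparison. From other lists, up to 4 with the smallest adjusted p in pnet2_ab against wild type were named, and all further membrane-bound NAC and release genes. Further list genes were named where they bore on a count or a median. Upstream sequence came from RefSeq's TAIR10.1; of 32835 genes shared with the authors' table, all lay on the same chromosome and 32834 spans overlapped. Coordinates of members are the authors'.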

Additional observations from a re-analysis of the deposited data

Results flagged for a closer look

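The levels of NAC062 and TIP differed between labelled lines that share the pnet2_ab background, by a direct test of the difference between lines; the transgenes were not visible in the counts of NAC062 and NTL9, so their part was not tested. Between the NTL6 and NTL12 lines the difference in log2 fold change was -0.81 for NAC062 (edgeR's quasi-likelihood test, adjusted p = 0.00012) and -0.46 for TIP (adjusted p = 0.006). Between the NTL9 and NTL12 lines it was -0.92 for NAC062 (adjusted p = 3.7e-05) and -0.46 for TIP (adjusted p = 0.0069). All 4 differences had the lower values in both libraries of the NTL6 or NTL9 line, and the marker sums also differed. Leaf markers summed to 36800 to 38000 CPM in the NTL6 line, 40100 to 45700 CPM in the NTL9 line and 37300 to 39400 CPM in the NTL12 line. Among them LHB1B1 averaged 4560 CPM (NTL6), 5350 CPM (NTL9) and 8660 CPM (NTL12). Flower markers summed to 4.91 to 5.19 CPM (NTL6), 4.63 to 6.45 CPM (NTL9) and 7.75 to 7.81 CPM (NTL12). Vasculature markers summed to 308 to 309 CPM (NTL6), 234 to 273 CPM (NTL9) and 240.0 to 247 CPM (NTL12). Epidermis markers summed to 244 to 259 CPM (NTL6), 257 to 268 CPM (NTL9) and 213 to 228 CPM (NTL12). Guard cell markers summed to 58.6 to 66.6 CPM (NTL6), 57.4 to 65.7 CPM (NTL9) and 51.6 to 58.8 CPM (NTL12). Root markers summed to 49.7 to 60.1 CPM (NTL6), 62.0 to 130.0 CPM (NTL9) and 55.0 to 61.8 CPM (NTL12). The part of these markers in the differences was not tested.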

How the results depend on the processing

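The 9 tested members gave 1600 fold changes over the alternatives, of which 1545 kept direction and side of the threshold, 43 lost a call, 11 gained one and 1 reversed; a reversal was counted only where the value from all libraries was larger than its standard error or called. RLE scaling and DESeq2 changed no member's call. The reversal was NAC13 in the NTL9 line against pnet2_ab, at 0.23 with all libraries and -0.0091 to 0.44 as libraries were left out, the low end without NTL9 replicate 1, uncalled in both cases. In the NTL6 line against pnet2_ab, 2 members were called without the filter on low counts and 0 by limma on FPKM plus 1 or plus 0.1, against 1 in the model above. In the NTL6 line against wild type limma on FPKM plus 1 called 2 instead of 4. In the NTL9 line against pnet2_ab limma called 1 instead of 3 on FPKM plus 0.1 and with a mean FPKM of at least 1. The last setting left out NAC016, at a mean of 0.589 FPKM, so it could not be called there. The causes of the other changes were not tested.

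Leaving out 1 library at a time, members called ranged from 5 to 6 in pnet2_ab against wild type, 0 to 1 in the NTL6 line, 0 to 3 in the NTL9 line and 0 to 0 in the NTL12 line against pnet2_ab, 2 to 4, 3 to 4 and 5 to 6 in these lines against wild type, 0 to 0 between the NTL6 and NTL9 lines, 1 to 2 between the NTL6 and NTL12 lines, 1 to 2 between the NTL9 and NTL12 lines, and 5 to 6 across all genotypes. A lone remaining library was assumed to vary like the other groups.

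Deviations of same-numbered libraries correlated at -0.038 to 0.032, so no large effect shared by them was seen. Whether they were grown or prepared together cannot be told from this, and the labels do not say. With the replicate number as a block, NAC016 lost its call in the NTL9 line against pnet2_ab (-1.88, adjusted p = 0.052) and in the NTL12 line against wild type (1.97, adjusted p = 0.066), NAC053 gained one in the NTL9 line against wild type (0.57, adjusted p = 0.048), and no other member's call changed. Leave-out, block and DESeq2 counts of the other gene lists were added after seeing the data. Depth limits NAC060, NTL8 and NAC016, with 3, 106 and 324 counts in all.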
